A study of Mus musculus with 9 samples.

Results

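The oocyte-specific F-box WD40 family was followed in 9 RNA-seq libraries of mouse metaphase II oocytes, which are arrested until fertilisation. The family was taken as 10 listed genes, Fbxw13, Fbxw14, Fbxw15, Fbxw16, Fbxw18, Fbxw19, Fbxw20, Fbxw21, Fbxw22 and Fbxw24, and each was found once among the 22526 genes of the deposited table. All 10 lie in a tandem cluster on mouse chromosome 9 with 5 further Fbxw genes. The 3 groups of 3 libraries were oocytes of a group given nicotinamide mononucleotide (NMN, a precursor of the coenzyme NAD), an aged group and a young group. All came from ICR mice, an outbred strain. The labels give no age in weeks for any group, no age at all for the NMN mice, no dose, and neither the number of oocytes nor of mice behind a library. The p-values below therefore measure the spread between libraries, which may be technical. The question of the study, by its title, is whether supplied NMN restores the quality that oocytes lose with maternal age.

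An F-box protein is the interchangeable substrate-binding subunit of an SCF ubiquitin ligase. Its F-box binds Skp1, which joins it to the Cul1 scaffold and the RING protein Rbx1, while repeats such as WD40 propellers bind the protein to be ubiquitinated. In the mouse a group of F-box WD40 genes has multiplied in tandem, and its mRNAs are known as abundant oocyte transcripts. Fbxw15 has been described in mouse lung epithelial cells as an adaptor for degradation of the histone acetyltransferase Kat7 (HBO1), and Fbxw24 in mouse oocytes as an adaptor acting on the chromosome axis protein Sycp3. The substrates of most other members are less well described.

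The members are close copies of each other, in their transcripts and in front of their start sites. Upstream sequence of RefSeq (build GRCm38.p6, minus strand) was matched for 8 members, and Fbxw13 and Fbxw22 had no entry. The 250 bases before the start site were aligned, and 205 to 250 bases of a pair stood opposite each other. Over these bases, with gaps left out, pairs of the 8 were 81.7% to 95.5% identical (median 88.8%). The stretch below, 5' to 3', is shown because it holds the motifs that most of the family shares. Capitals mark CAGCTG and TTTAAA, 2 motifs chosen after the sequences were seen.
Fbxw21 at chr9:109162041-109162132: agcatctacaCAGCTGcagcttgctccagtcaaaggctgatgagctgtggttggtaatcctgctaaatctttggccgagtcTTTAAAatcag
Fbxw20 at chr9:109234755-109234844: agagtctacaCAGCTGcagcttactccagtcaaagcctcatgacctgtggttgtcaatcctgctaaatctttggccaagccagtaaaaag
Fbxw14 at chr9:109287691-109287782: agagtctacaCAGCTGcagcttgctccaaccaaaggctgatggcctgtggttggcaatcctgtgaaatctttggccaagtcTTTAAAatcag
Fbxw16 at chr9:109449159-109449250: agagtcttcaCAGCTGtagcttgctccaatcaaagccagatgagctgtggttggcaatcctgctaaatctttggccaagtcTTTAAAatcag
Fbxw19 at chr9:109495898-109495989: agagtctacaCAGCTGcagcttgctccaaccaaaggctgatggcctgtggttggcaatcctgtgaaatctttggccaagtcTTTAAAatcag
Fbxw15 at chr9:109568282-109568373: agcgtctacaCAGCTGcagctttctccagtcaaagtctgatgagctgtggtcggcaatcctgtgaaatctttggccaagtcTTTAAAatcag
Fbxw24 at chr9:109626079-109626170: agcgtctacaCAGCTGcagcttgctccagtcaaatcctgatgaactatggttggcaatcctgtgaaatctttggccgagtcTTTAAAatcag
Fbxw18 at chr9:109702701-109702791: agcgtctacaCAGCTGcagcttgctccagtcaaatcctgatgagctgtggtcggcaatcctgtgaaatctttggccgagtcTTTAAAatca
The stretch of Fbxw19 was identical to that of Fbxw14 over 92 bases. Fbxw15 differed from Fbxw14 at 8 bases, Fbxw16, Fbxw18 and Fbxw24 at 9, Fbxw21 at 10, and Fbxw20 at 14 of 90. CAGCTG, which reads the same on both strands and has the form of an E-box, stood in all 8 upstream windows, against 12.8% of the 27025 RefSeq promoters searched over the same length. It occurred once more, further upstream, in every one of these 8 but Fbxw20. TTTAAA, also its own reverse complement, was in 7 of the 8 and in 12.1% of all promoters, and it was not in the window of Fbxw20. Of 4 promoters of the other cluster genes, Fbxw25, Fbxw26 and Fbxw28 held both motifs, so they are not particular to the 10 members. TAATTG (7.34% of promoters), TAATTA (4.9%) and TATAAA (13.0%) were in none of the 8 on either strand. These genes are copies of each other and not independent cases, and a match is a description of sequence only.

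The transcripts themselves were 74.8% to 93.0% identical in aligned bases, with gaps left out, over 45 pairs of members (median 83.0%). Of all 50-base words of a member's longest protein-coding transcript in GENCODE M21, 73.3% (Fbxw16) to 94.2% (Fbxw24) occurred in no other gene. Fbxw14 was the exception at 32.4%, and it is 99.1% identical to Fbxw28, its neighbour, over 1619 aligned bases. The authors' division of reads between Fbxw14 and Fbxw28 is therefore uncertain, and the pair is also given as a sum. The GENCODE sequences are of the reference strain, and reads of ICR mice may differ from them.

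All libraries were oocyte libraries by their markers. The 10 oocyte markers, which include Bmp15, Gdf9 and Zp3, were above 0 in each and summed to 7074 to 10373 FPKM (fragments per kilobase of transcript, scaled to the mapped fragments of a library). Aged replicate 2 stood apart. Its 12 measured markers of cumulus, granulosa and stromal cells summed to 18.9 FPKM with 11 above 0, whereas the other 8 libraries had 3.19 to 6.72 FPKM with 2 to 5 above 0. Ptx3, Inha, Fst, Tnfaip6 and Vim were listed at 0 in those 8. Cyp19a1 went the other way, at 3.03 FPKM in aged replicate 2 and 3.05 to 6.2 FPKM in those 8, where it made up most of the sum. Col1a1 was at 0 in aged replicate 2. Depth, estimated from the low values, was 16277500 to 19249500 reads per library. A level in FPKM is relative to the other mRNAs of a library, so less of a transcript per oocyte and more of the others cannot be told apart.

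Of the 10 members, 4 were among the 100 genes with the highest mean FPKM. Fbxw14 held place 27 of 22526 genes by mean FPKM, Fbxw24 place 44, Fbxw18 place 87 and Fbxw22 place 94. Fbxw15, Fbxw20 and Fbxw19 followed at places 254, 366 and 517, Fbxw16 and Fbxw21 at 821 and 872, and Fbxw13 at 3716. Counting length and depth, these levels stand for about 43296 reads per library for Fbxw14 and about 207 for Fbxw13, so Fbxw13 is the least precisely counted. Together the 10 members had 3805, 3719 and 3725 FPKM in NMN libraries, 3989, 3922 and 4094 FPKM in aged libraries, and 2812, 3107 and 3192 FPKM in young libraries. The sums of the NMN and aged libraries all lay above those of the young libraries, and the aged sums above the NMN sums. As a share of all FPKM in the table this was 1.21% to 1.24% in NMN, 1.19% to 1.32% in aged and 0.905% to 1.06% in young libraries. With FPKM scaled between libraries, the group means of the sum were 3707 ± 135 in NMN, 3950 ± 403 in aged and 3129 ± 285 in young libraries (SD, n = 3), and aged replicate 2 at 3487 then lay below the other aged libraries at 4225 and 4137 and below all 3 NMN libraries.

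**Figure D1:**
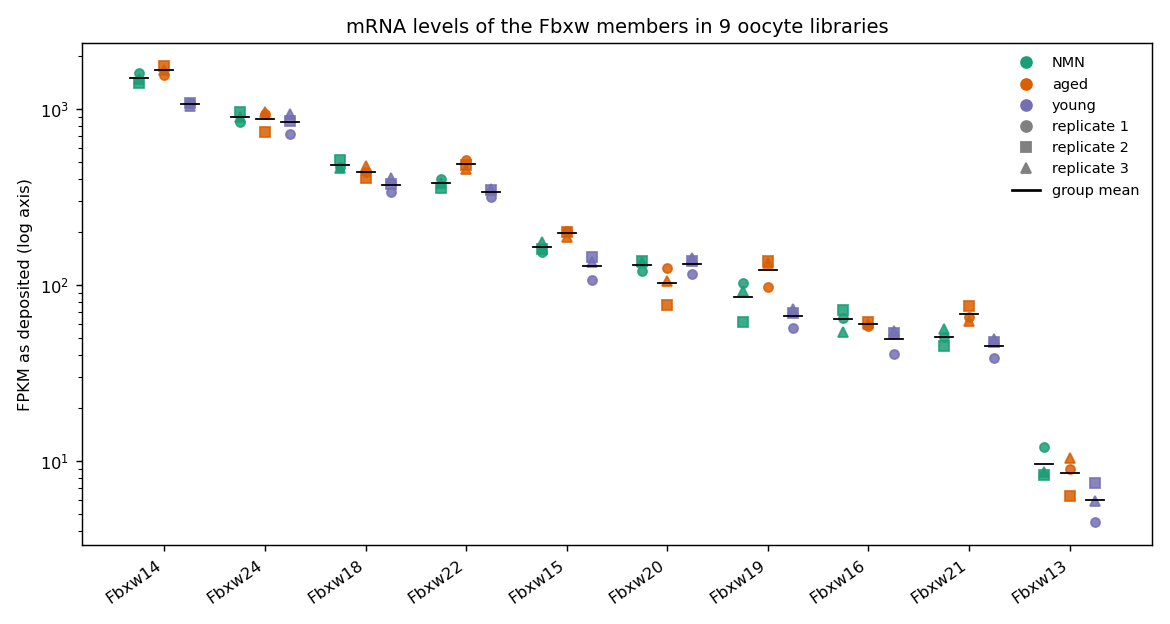
FPKM as deposited (log axis) of the 10 members in the 9 libraries, with NMN, aged and young oocytes side by side for each gene, markers for replicates 1 to 3 and a bar for the group mean. Fbxw14 lies highest in every library and Fbxw13 lowest, and the young libraries of Fbxw14 (1043 to 1084 FPKM) sit below all NMN and aged libraries.

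The order of the levels was nearly fixed. Fbxw14 was first, Fbxw24 second and Fbxw13 last in all 9 libraries. Fbxw18 stood above Fbxw22 in 7 libraries and below it in aged replicates 1 and 2, and the remaining members each took 2 or 3 places. Neighbours such as Fbxw18 and Fbxw22, Fbxw15 and Fbxw20, and Fbxw16 and Fbxw21 thus exchanged ranks between libraries.

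In aged against young oocytes, 8 of the 10 members had a log2 change above 0, as had 44.8% of all tested genes, and 0 passed the test. The test was limma on log2(scaled FPKM + 1) across 9168 genes, of which 2.18% were called at an adjusted p under 0.05, and all 10 members passed its filter on low values. At an unadjusted p under 0.05 there were 5 members, Fbxw14, Fbxw15, Fbxw19, Fbxw21 and Fbxw22, where 18.3% of all tested genes stood. For 7 members every aged library lay above every young one in FPKM as deposited, against 12.6% of all tested genes, and for 0 members every aged library lay below (11.2%). On scaled values the number above was 5 (11.4% of all tested genes) and the number below 0 (12.7%). Without aged replicate 2 it was 8, against 18.7% of the tested genes. The median log2 change of the members was 0.43, beside -0.05 over all tested genes. The 10 oocyte markers, with 9 above 0 and a median of 0.47, gave values of a like size, and 1 of them, Zp3, was called higher (log2 change 1.06, limma adjusted p = 0.0410). The part of that shift in the family's values was not tested.

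Fbxw14, the most abundant member, was at 1551, 1745 and 1655 FPKM in aged libraries, against 1084, 1077 and 1043 FPKM in young libraries. All 3 aged values exceeded the highest young value by more than the whole spread of the young group. Its log2 change was 0.56 ± 0.14 (SE) with a limma adjusted p of 0.0763, just outside the threshold. The adjusted p was 0.0444 on values as deposited and 0.0447 without aged replicate 2, and over all alternatives it ran up to 0.263, without young replicate 3. Its copy Fbxw28, which is outside the family list, had 1928, 2166 and 1817 FPKM in aged and 1534, 1298 and 1243 FPKM in young libraries. Summed, the pair had 3480, 3912 and 3472 FPKM in aged, against 2618, 2375 and 2286 FPKM in young libraries. The groups did not overlap for the sum either. Entered as 1 feature in the fit across all genes, the pair gave a log2 change of 0.51 ± 0.15 (limma adjusted p = 0.106).

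Fbxw19 had the widest difference of the family. It was at 97.5, 135.9 and 132.1 FPKM in aged libraries and at 57.1, 69.2 and 72.8 FPKM in young libraries, a log2 change of 0.79 ± 0.21 (limma adjusted p = 0.0848). Aged replicate 1 was the lowest of its group and still above the young libraries. Fbxw15, the adaptor named above for Kat7, had 201.2, 200.5 and 186.7 FPKM in aged and 106, 144 and 134 FPKM in young libraries (log2 change 0.55 ± 0.18, limma adjusted p = 0.153). Its 3 aged libraries lay close together, and the groups did not overlap. Fbxw21 was at 65.8, 76.1 and 62.5 FPKM in aged and at 38.2, 47.4 and 49.4 FPKM in young libraries (0.53 ± 0.17, limma adjusted p = 0.152). Fbxw22 was at 514, 477 and 457 FPKM in aged and at 314, 344 and 352 FPKM in young libraries (0.45 ± 0.16, limma adjusted p = 0.181). In both genes the aged values were again all above the young ones.

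The remaining members were closer between the ages or went the other way. Fbxw16 had 58.4, 61.5 and 59.9 FPKM in aged, against 40.5, 52.9 and 54.9 FPKM in young libraries, and Fbxw18 had 438, 404 and 473 FPKM in aged, against 337, 373 and 402 FPKM in young libraries. Their groups did not overlap as deposited but did so after scaling, and the log2 changes were 0.22 ± 0.20 and 0.18 ± 0.18 (limma adjusted p = 0.594 and 0.645). Without young replicate 1, the lowest library of both genes, they were 0.07 and 0.09. Without aged replicate 2 that of Fbxw18 was 0.31, and without aged replicate 3 it was 0.10. Fbxw13, the rarest member, was at 8.93, 6.33 and 10.4 FPKM in aged and 4.47, 7.52 and 5.90 FPKM in young libraries, with overlapping groups (0.40 ± 0.26, limma adjusted p = 0.456). Fbxw24, the adaptor named above for Sycp3, had 931, 738 and 953 FPKM in aged and 715, 856 and 936 FPKM in young libraries. These ranges lay on top of each other, and the 95% interval of the log2 change ran from -0.47 to 0.47 (limma adjusted p near 1, at 0.9996).

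Fbxw20 had the lowest log2 change of the family in aged against young oocytes and did not pass the test. It was at 124, 77.1 and 105 FPKM in aged libraries, against 115, 136 and 142 FPKM in young libraries. Aged replicate 2 was the lowest library and aged replicate 1 lay within the young range, so the groups overlapped. The log2 change was -0.44 ± 0.24 (95% interval -0.98 to 0.09, limma adjusted p = 0.353), and without aged replicate 2 it was -0.19. Fbxw20 is also the gene whose upstream window above holds no TTTAAA and a single CAGCTG. Fbxw24, whose window holds both motifs, had a log2 change near 0 in the same comparison, and Fbxw13 and Fbxw22 had no upstream entry. A connection of these motifs with the level of any member was not tested.

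**Figure D2:**
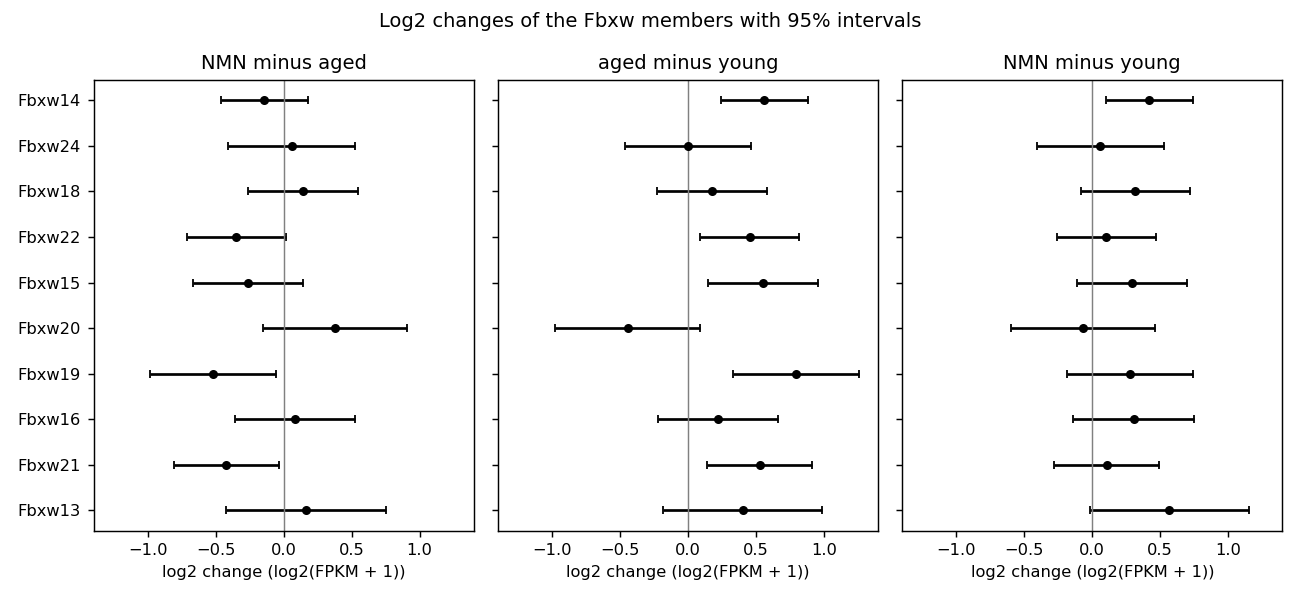
Log2 change of each member, on the log2(FPKM + 1) scale, for NMN minus aged, aged minus young and NMN minus young, as limma estimates with unadjusted 95% intervals. In aged minus young the points of 8 members lie above 0, with Fbxw20 at -0.44 below it and Fbxw24 at 0, and no member passed the adjusted threshold in any panel.

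In NMN against aged oocytes the members divided evenly, 5 above 0 and 5 below, where 53.2% of all tested genes were above 0, with a median log2 change of -0.04 beside 0.02 over all tested genes. The limma test called 0 of the 10, where 0.218% of all tested genes were called, and 2 members, Fbxw19 and Fbxw21, had an unadjusted p under 0.05 (11.3% of all genes). All 3 NMN libraries lay below all 3 aged libraries for Fbxw15, Fbxw21 and Fbxw22, against 6.51% of all tested genes. On scaled values this held for 5 members, Fbxw14 and Fbxw19 added, against 6.68%. For 0 members all NMN libraries lay above all aged ones, against 9.09% of all tested genes as deposited and 9.27% on scaled values. The oocyte markers had 1 of 10 above 0 and a median of -0.44 in this comparison, and their part in the family's values was not tested.

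Fbxw21 had 50.3, 44.7 and 56.1 FPKM in NMN libraries, against 65.8, 76.1 and 62.5 FPKM in aged libraries. The log2 change was -0.42 ± 0.17 (limma adjusted p = 0.404), and of the NMN values 1 lay within the range of the young libraries and 2 above it. Fbxw22 had 401, 352 and 378 FPKM in NMN, against 514, 477 and 457 FPKM in aged libraries (-0.35 ± 0.16, limma adjusted p = 0.464). Its NMN values lay between those of the aged and the young group, with no overlap as deposited, although the lowest NMN and the highest young library both had 352 FPKM to 3 digits. Fbxw15 was at 154, 159 and 176 FPKM in NMN libraries, as deposited also between both other groups. Its log2 change against aged was -0.26 ± 0.18 (limma adjusted p = 0.620). On scaled values the NMN and young libraries overlapped for both Fbxw22 and Fbxw15. Fbxw19 was at 102, 61.8 and 92.1 FPKM in NMN libraries, with an SD of 21.0 FPKM, beside 21.2 FPKM in aged libraries. NMN replicate 1 exceeded aged replicate 1 (-0.52 ± 0.21, limma adjusted p = 0.399).

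For the other members the NMN and aged libraries overlapped as deposited. Fbxw14 had 1588, 1407 and 1471 FPKM in NMN libraries, overlapping with the aged range (-0.14 ± 0.14, limma adjusted p = 0.749). Its pair with Fbxw28 summed to 3444, 3186 and 3170 FPKM in NMN libraries, below the 3 aged sums. Fbxw18 was at 468, 515 and 459 FPKM (0.14 ± 0.18), Fbxw24 at 845, 962 and 898 FPKM (0.06 ± 0.21) and Fbxw16 at 65.0, 72.3 and 53.7 FPKM (0.08 ± 0.20), each overlapping with the aged libraries (limma adjusted p from 0.815 to 0.952). Fbxw13 had 11.9, 8.35 and 8.63 FPKM (0.16 ± 0.26, limma adjusted p = 0.860). Fbxw20 had 120, 136 and 134 FPKM in NMN libraries, with aged replicate 1 at 124 FPKM inside that range (0.38 ± 0.24, limma adjusted p = 0.581), and without aged replicate 2 the log2 change was 0.12.

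In NMN against young oocytes 9 of the 10 members had a positive log2 change, against 49.8% of all tested genes, with a median of 0.28 beside 0 over all tested genes. The limma test called 0 (0.0764% of all tested genes were called), and 1 member, Fbxw14, had an unadjusted p under 0.05 (8.13% of all genes). All NMN libraries lay above all young libraries for 5 members, Fbxw13, Fbxw14, Fbxw15, Fbxw18 and Fbxw22, against 9.58% of all tested genes, and below them for 0 (6.99%). On scaled values it was 3 above, Fbxw13, Fbxw14 and Fbxw18, against 7.97%, and 0 below, against 8.4%. The log2 change of Fbxw14 was 0.42 ± 0.14 (limma adjusted p = 0.459), that of Fbxw18 was 0.32 ± 0.18 (0.697) and that of Fbxw13 was 0.57 ± 0.26 (0.624). Fbxw24 and Fbxw20 had log2 changes near 0, at 0.06 ± 0.21 and -0.07 ± 0.24 (limma adjusted p = 0.944 for both), and the 95% interval of Fbxw20 reached from -0.60 to 0.47. The 3 comparisons share libraries, so their values for a gene are not independent of each other. The oocyte markers had a median of 0.07 here, with 5 of 10 above 0.

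The mix within the family was read from each member's share of the summed FPKM, a measure that no scaling between libraries can alter. Fbxw14 made up 38.9%, 44.5% and 40.4% of the family in aged libraries, against 38.5%, 34.7% and 32.7% in young libraries. Fbxw19 also had a higher share in aged libraries, 2.44% to 3.46%, against 2.03% to 2.28% in young libraries. Those of Fbxw18, Fbxw20 and Fbxw24 were lower. Fbxw20 made up 3.11%, 1.97% and 2.56% in aged libraries, against 4.09%, 4.39% and 4.45% in young libraries. With 3.15%, 3.66% and 3.60%, the NMN libraries lay between these groups without overlap. Fbxw24 made up 18.8% to 23.3% in aged and 25.4% to 29.3% in young libraries, and Fbxw18 10.3% to 11.5% in aged and 12.0% to 12.6% in young libraries. In NMN against aged libraries the shares of Fbxw18 and Fbxw20 were higher and those of Fbxw21 and Fbxw22 lower without overlap, and in NMN against young libraries those of Fbxw20 and Fbxw22 were lower. Shares of 1 whole depend on each other, and the sum is carried by Fbxw14, whose division from Fbxw28 is uncertain. Two-sided exact permutation tests of 30 shares gave p = 0.1 in each of the 11 cases without overlap, the smallest value that 3 against 3 libraries allow (Benjamini-Hochberg adjusted p = 0.273).

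**Figure D3:**
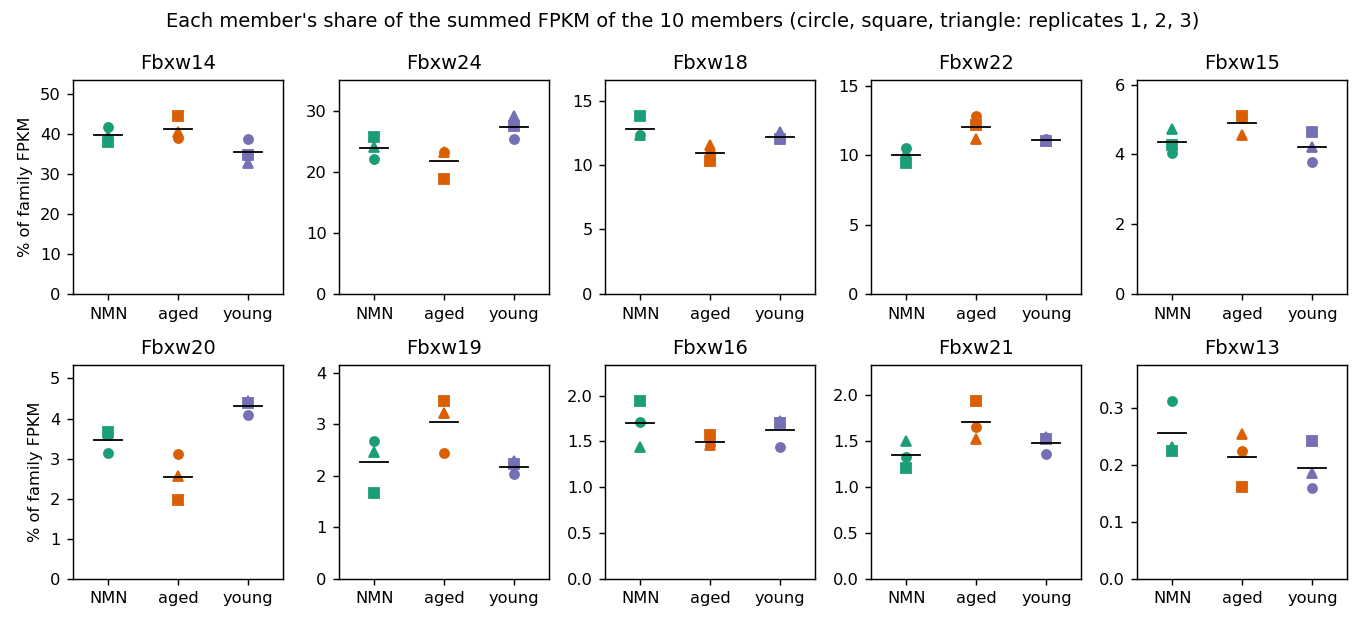
Share of each member in the summed FPKM of the 10 members (percent, axes from 0) in NMN, aged and young libraries, with 1 marker per replicate and a bar for the group mean. The share of Fbxw20 lies at 3.15% to 3.66% in NMN, 1.97% to 3.11% in aged and 4.09% to 4.45% in young libraries.

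Along the chromosome, the 10 members and the 5 further Fbxw genes formed 1 run on the minus strand, between Plxnb1 and Spink8 in GENCODE M21. The order was Fbxw21, Fbxw13, Fbxw20, Fbxw14, Fbxw28, Fbxw22, Fbxw16, Fbxw19, Fbxw23, Fbxw15, Fbxw24, Fbxw25, Fbxw18, Fbxw26 and Fbxw27. Fbxw23, Fbxw25 and Fbxw27 were added to the listed Fbxw26 and Fbxw28 after their values were seen, to complete the run. All 5 of these genes had a positive log2 change in aged against young and a negative one in NMN against aged oocytes. Of all tested genes, 44.8% and 53.2% were above 0 in these comparisons. Limma called 0 of the 5 in both, where 2.18% and 0.218% of all tested genes were called. An unadjusted limma p under 0.05 was found for 2 and 0 of them, against 18.3% and 11.3% of all tested genes. Fbxw26 was at 24.0, 20.4 and 21.8 FPKM in aged, against 13.2, 14.2 and 13.8 FPKM in young libraries, with no overlap (log2 change 0.58 ± 0.18, limma adjusted p = 0.128). Fbxw27, at the far end, was at 94.3, 94.0 and 108 FPKM in aged and 84.6, 87.4 and 101 FPKM in young libraries (0.05 ± 0.17, limma adjusted p = 0.898). Fbxw20, with its negative change, stands between Fbxw13 and Fbxw14, whose changes were positive.

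**Figure D4:**
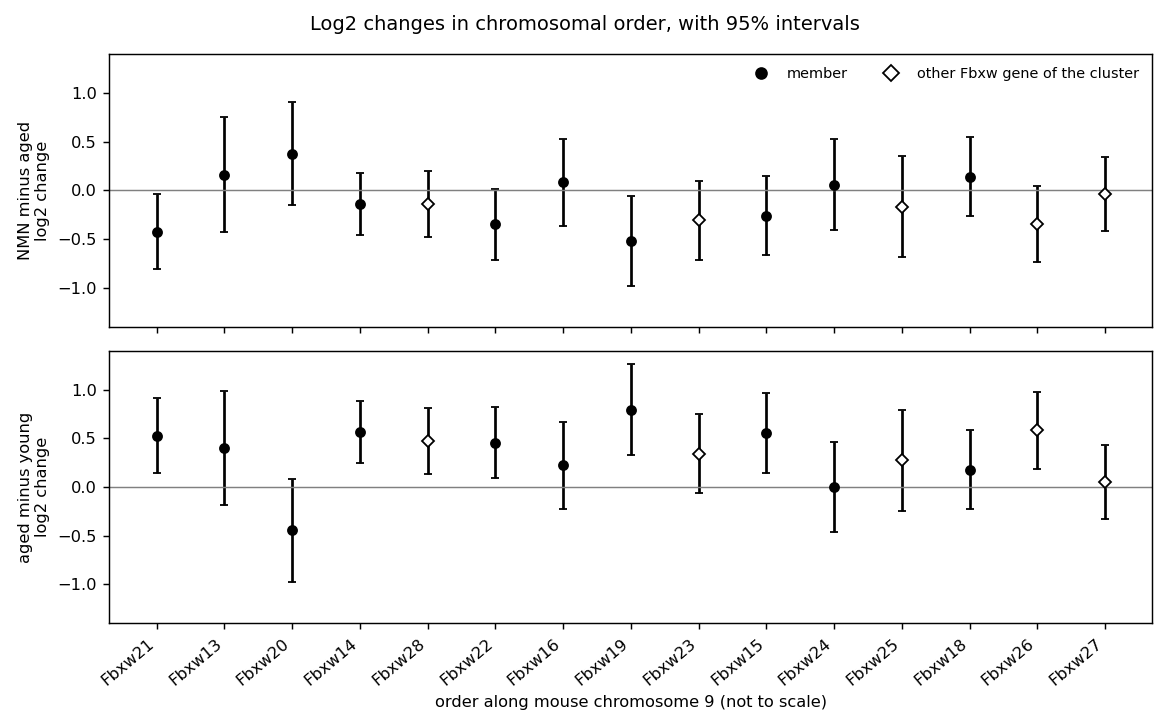
Log2 change (log2(FPKM + 1) scale, unadjusted 95% intervals) of the 15 Fbxw genes in their order on chromosome 9, for NMN minus aged above and aged minus young below, with the 10 members filled. In the lower panel 13 of the 15 points lie above 0, against 44.8% of all tested genes. The exceptions are Fbxw20 at -0.44 and Fbxw24 at 0.

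F-box WD40 genes outside the cluster were low in these oocytes. Of 12 listed, Fbxw26 and Fbxw28 of the cluster included, 7 passed the filter and 0 were called by limma in any comparison. In aged against young, 2 had an unadjusted limma p under 0.05 (18.3% of all tested genes). Both were cluster genes, Fbxw26 and Fbxw28. The number was 0 in NMN against aged (11.3% of all tested genes) and in NMN against young oocytes (8.13%). Fbxw5 had 3.52, 1.35 and 6.37 FPKM in aged and 4.04, 4.52 and 5.23 FPKM in young libraries, and Fbxw17, which lies outside the cluster, 0.59, 0.85 and 1.01 FPKM in aged and 1.17, 1.01 and 1.03 FPKM in young libraries. Listed genes of SCF ligases and their regulators spanned a wide range of levels. They include other F-box genes, such as Skp2, Ccnf, Fbxo5 and Fbxo43, and so are not all partners of the family. Of 33 in the table, 7 averaged at least 100 FPKM over the 9 libraries, 12 from 10 to under 100 FPKM and 14 under 10 FPKM. The 7 were Skp1a, Cul1, Cops8, Ube2d3, Cks1b and the F-box genes Fbxo5 and Fbxo43. Skp1a, the protein that holds the F-box, averaged 304 ± 5.12 FPKM in NMN, 333 ± 99.4 FPKM in aged and 257 ± 20.5 FPKM in young libraries (SD, n = 3). Cul1, the scaffold, averaged 351 ± 18.4 FPKM in NMN, 374 ± 69.6 FPKM in aged and 383 ± 30.5 FPKM in young libraries. Rbx1, the RING subunit, was lower, at 11.5 ± 3.89 FPKM in NMN, 11.1 ± 3.82 FPKM in aged and 10.3 ± 3.15 FPKM in young libraries. These 3 core subunits were picked for naming after their values were seen.

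Of 33 ligase and regulator genes in the table, 28 were tested and limma called 0 in each of the 3 comparisons. Unadjusted p-values under 0.05 numbered 1 in NMN against aged, 2 in aged against young and 1 in NMN against young oocytes, where 11.3%, 18.3% and 8.13% of all tested genes stood. The list's median log2 change was -0.06, 0.01 and -0.13 in these comparisons. Cops8, a subunit of the COP9 signalosome that removes Nedd8 from cullins, came nearest to a call. It had 136, 115.1 and 114.9 FPKM in aged libraries, against 199, 209 and 197 FPKM in young libraries (log2 change -0.79 ± 0.18, limma adjusted p = 0.0535). In NMN libraries it had 177, 204 and 186 FPKM, all above the aged libraries (0.64 ± 0.18, limma adjusted p = 0.216). Ube2d1, a ubiquitin-conjugating enzyme, was at 4.93, 4.08 and 4.07 FPKM in aged and 7.05, 6.10 and 6.30 FPKM in young libraries (-0.54 ± 0.20, limma adjusted p = 0.183). Its NMN libraries, at 3.56, 4.48 and 5.22 FPKM, overlapped with the aged libraries (0.01 ± 0.20, limma adjusted p = 0.944). All of them lay below the young libraries (-0.52 ± 0.20, limma adjusted p = 0.509). Fbxo5 (Emi1), an F-box protein that inhibits the anaphase-promoting complex, was at 201, 198 and 194 FPKM in aged and 230, 241 and 228 FPKM in young libraries (-0.30 ± 0.16, limma adjusted p = 0.358). With 173, 197 and 197 FPKM, the NMN libraries of Fbxo5 overlapped with the aged libraries (-0.06 ± 0.16, limma adjusted p = 0.932). They too lay below the young libraries (-0.36 ± 0.16, limma adjusted p = 0.614). Cops5, the catalytic subunit of the signalosome, had 3.39, 5.24 and 3.79 FPKM in aged and 2.13, 2.60 and 3.27 FPKM in young libraries (0.43 ± 0.20, limma adjusted p = 0.277). At 3.31, 2.37 and 3.13 FPKM, its NMN libraries all lay below the aged libraries (-0.37 ± 0.20, limma adjusted p = 0.515).

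Members were also compared in how they varied between libraries of the same group. Over the 9 libraries 39 of 45 member pairs had a Pearson r above 0 (median 0.55), and with group means removed 40 of 45 did (median 0.55). Over all pairs of the 9168 tested genes 50.4% had an r above 0 (median 0.01) by either measure, and over pairs of the 3285 tested genes with a mean of at least 10 FPKM it was 52.2% and, with group means removed, 51.8% (median 0.04 for both). Within groups Fbxw18 and Fbxw24 were the closest pair, at 0.97, and Fbxw20 and Fbxw24 stood at 0.94. Aged replicate 2 was the lowest aged library for Fbxw18, Fbxw24 and Fbxw20, at 404, 738 and 77.1 FPKM. No r is given without that library. Fbxw20 had an r below 0 over the 9 libraries with Fbxw14 (-0.42), Fbxw19 (-0.58), Fbxw21 (-0.41), Fbxw22 (-0.22) and Fbxw15 (-0.16). With group means removed, r was above 0 for 4 of these 5 pairs, at 0.50, 0.33, 0.83 and 0.71 with Fbxw14, Fbxw21, Fbxw22 and Fbxw15, and it was -0.17 with Fbxw19. These are descriptions of 9 points that share the scaling factors and, between near copies, reads.

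Among 2937 named genes with a mean of at least 10 FPKM, 5 followed the summed family most closely over the 9 libraries, both taken as log2 of scaled FPKM + 1. Pgrmc1, a heme-binding membrane protein, led with a Pearson r of 0.942, followed by the zinc finger gene Zfp640 (0.936), Swt1 (0.932), Strap (0.906) and the dynein intermediate chain Dync1i2 (0.901). Spearman's rho ranged from 0.817 for Dync1i2 to 0.95 for Pgrmc1. Pgrmc1 had 37.6, 47.4 and 38.8 FPKM in NMN, 53.9, 34.2 and 68.7 FPKM in aged, and 19.8, 18.9 and 27.6 FPKM in young libraries, as deposited and before that scaling. These genes were picked as the highest of many correlations, so the values have no test.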

How the data were processed

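Messenger RNA of 9 mouse oocyte libraries was made into cDNA from an oligo(dT) primer by Smart-seq2 and sequenced after DNBseq library preparation, per the labels' protocols. The authors deposited 1 table whose name speaks of raw counts but whose values are FPKM, fractional and summing to 300369 to 329359 per library. Bowtie2 2.2.5, RSEM and the build mm9 are named per the submitters' processing notes. The annotation, the treatment of reads that match several genes and any filter are, in the sources used here, not given. Of 22526 gene identifiers, 22487 were matched to symbols by GENCODE M21, which is on a later build and served for names, lengths, order and transcript sequence only.

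Depth came from 2659 genes with 1 transcript over 1500 nt, whose low values fell on whole reads within 0.02 reads for 96.5% to 97.7% of values. The floor of 3 reads corresponds, at 2 kb, to 0.0779 to 0.0922 FPKM and covers counting error only.

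FPKM were divided by trimmed-mean factors, trimming 30% of ratios and 5% of levels. The 9168 genes reaching 1 FPKM in 3 or more libraries were tested with limma 3.58.1 under R 4.3.3 on log2(FPKM + 1), all 9 libraries in 1 fit of group means with trend and robust moderation, and Benjamini-Hochberg adjustment over all tested genes. This scale understates changes of low genes. Of these steps only the limma fit was tried on simulated data, for aged against young. Transcripts and promoters were aligned with MAFFT 7.526. Named were all 10 members, the called genes of the ligase lists or else the 4 with the smallest p, and the 5 most alike genes. Members and lists were chosen with earlier results of these data known.

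The groups share replicate numbers that the labels tie to no animal or day. The deviations of same-numbered NMN and young libraries had r = 0.497, 0.119 and 0.142. Those of aged and young had r = -0.339, -0.267 and 0.314, and those of NMN and aged -0.372, -0.359 and 0.199. Only NMN and young libraries had an r above 0 for every number, and it was weak for replicates 2 and 3. With the replicate number as a block, 0 members were called in NMN against young, as without it. Alternatives were a pseudocount of 0.1, no filter or a minimum of 10 FPKM, other scalings, 2-group fits, the block and each library left out in turn.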

Additional observations from a re-analysis of the deposited data

How the results depend on the processing

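The count of family members called by limma was 0 in NMN against aged and in NMN against young oocytes under every alternative run. In aged against young it was 1, Fbxw14, with values as deposited, and 0 to 1 with libraries left out in turn. Members higher without overlap in aged against young numbered 7 as deposited (12.6% of all tested genes) and 5 on scaled values (11.4%). In NMN against aged, 3 were lower as deposited (6.51%) and 5 on scaled values (6.68%). In NMN against young, 5 were higher as deposited (9.58%) and 3 on scaled values (7.97%). The counts on scaled values and without aged replicate 2 were chosen after seeing the data. Of 480 member values under alternatives, the sums of Fbxw14 with Fbxw28 included, 464 kept direction and side of the threshold. Much of this was fixed in advance. The filters and the block leave a log2 change as it is, and leaving out a library of the group not compared hardly moves it. With 0 members called in the main fit, the side could change only toward a call. Reversals touched small changes. Fbxw24 in aged against young was 0.0643 as deposited and 0.0179 with median-of-ratios scaling. With libraries left out it ran from -0.13 to 0.19, and from -0.131 to 0.165 in NMN against aged and -0.0709 to 0.16 in NMN against young. Likewise Fbxw13 (-0.0791 to 0.325) and Fbxw16 (-0.0476 to 0.212) in NMN against aged, and Fbxw20 (-0.179 to 0.0145) and Fbxw21 (-0.0283 to 0.191) in NMN against young, crossed 0.

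Over all genes, calls in NMN against aged (20) were 9 with no filter, 3 at a minimum of 10 FPKM, 6 with only the 2 groups and 5 to 26 with libraries left out. Calls in aged against young (200) were 31, 97, 132 and 20 to 210 under these settings and 73 with the replicate block. In NMN against young (7) they were 0, 1, 17 and 1 to 14, 3 with values as deposited and 0 with the replicate block. The cause was not tested. Depth limits Fbxw13 most.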
